A study of Mus musculus with 8 samples.

Results

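Sostdc1, Cxcr5, Bcl6, Il21 and Sh2d1a were followed across the bone marrow T cells of mice with and without the Runx1::Runx1t1 fusion. These 5 genes, of 32285 in the gene tables, were chosen by symbol, and they were selected on results of these same data, in which Sostdc1 was lower in the fusion group. The difference of each of the 5 genes between the groups is therefore given below as a description, without a p-value. Whether it passed the threshold of a fit is stated beside the share of all genes that did, and nothing is read from it. Tests are given for contrasts between cell states, for listed genes and for interaction terms. The interaction terms contain the group difference, which was known when the genes were chosen. Their p-values are therefore not independent of the choice. The Runx1::Runx1t1 group were Runx1Runx1t1/+; Mx1-Cre mice. The control group, whose genotype is given as WT in the sample records, were sex-matched littermates with the Runx1Runx1t1/+ allele and no Mx1-Cre. All mice were C57BL/6. Induction was with Poly(I:C) at 5 mg/kg, injected 4 times, and bone marrow was taken 4 weeks later. Mx1-Cre is switched on by interferon and acts in many cell types, and the sorted cells were DAPI- mCherry- CD3+, so that T cells carrying the fusion reporter were left out. There were 2 replicates per group, each a pool of 2 mice, and every pool gave a 5′ gene expression library and a T cell receptor library. Ages were not given in the sources used here.

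Follicular helper T cells are CD4 T cells that help B cells to mature in germinal centres. Bcl6 is the transcriptional repressor that sets their fate, Cxcr5 the chemokine receptor that leads them into the B cell follicle, and Il21 the cytokine through which they act on B cells. Sh2d1a encodes SAP, the adaptor of the Slam family receptors that keeps T cells attached to B cells, and Sostdc1 encodes a secreted antagonist of BMP and Wnt signals that follicular helper T cells can produce. In the GENCODE M21 annotation of GRCm38, all 5 are protein-coding genes. Sostdc1 (ENSMUSG00000036169) lies at chr12:36314139-36318452 on the plus strand, and Cxcr5 (ENSMUSG00000047880) at chr9:44511787-44561877 on the minus strand. Bcl6 (ENSMUSG00000022508) lies at chr16:23965052-23988852 and Il21 (ENSMUSG00000027718) at chr3:37222759-37232636, both on the minus strand. Sh2d1a (ENSMUSG00000005696) lies at chrX:42502453-42529330 on the plus strand.

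The 4 gene expression libraries held 56649 cell barcodes and between 90958101 and 102883449 UMIs each, and 53033 cells were kept. A UMI is a molecular tag that counts 1 RNA molecule, and CPM below is the UMIs of a gene per 1000000 UMIs of the same cells, unscaled by gene length. Cd4+ T cells were cells with at least 1 Cd4 UMI, at least 1 Cd3 UMI and no Cd8a or Cd8b1 UMI. This gate held 2590 and 2439 cells in Runx1::Runx1t1 replicates 1 and 2, and 1162 and 1079 cells in control replicates 1 and 2. Each Cd4+ cell then went into the first gate it met, in the order of invariant NKT (by its receptor), Foxp3+ (at least 1 Foxp3 UMI), cytotoxic (at least 2 of Gzmk, Gzma, Gzmb, Nkg7, Ccl5 and Eomes), follicular (at least 2 of Pdcd1, Izumo1r, Tox2, Cd200, Angptl2, Ascl2 and Il4), naive (at least 2 genes of a list of 6 with Ccr7, Lef1, Igfbp4, Dapl1 and Actn1) and remaining. No gate used any of the 5 genes. The make-up of the Cd4+ cells differed between the groups. The cytotoxic gate held 46.0% and 55.4% of them in the Runx1::Runx1t1 replicates and 23.1% and 26.7% in the controls, and the follicular gate held 5.48% and 4.02% against 14.4% and 6.12%. Replicate pools differed from each other by more than sampling noise (chi-square per degree of freedom 7.80 between the Runx1::Runx1t1 pools and 4.53 between the controls, over the genes of the Cd4+ sums), so that no pool repeated another. Of the kept cells, 2869 (5.41%) had a barcode that also occurred in another library. Among the cells with Sostdc1, 5 had such a barcode, and 0 of them shared it with another cell with Sostdc1.

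First, to see where Sostdc1 was expressed, all kept cells with at least 1 Sostdc1 UMI were counted. There were 102 such cells with 540 UMIs in all. Runx1::Runx1t1 replicates 1 and 2 held 7 cells each, control replicate 1 held 71 cells and control replicate 2 held 17 cells. The UMIs numbered 15 and 20 in the Runx1::Runx1t1 replicates, 361 in control replicate 1 and 144 in control replicate 2. Sostdc1 was thus a transcript of few cells in every pool. The median cell with Sostdc1 held 2 and 1 UMIs in the Runx1::Runx1t1 replicates and 3 in both controls, and the highest cell held 5, 8, 22 and 33 in that order of pools. The 4 highest cells held 80.0% and 85.0% of the Sostdc1 UMIs of the Runx1::Runx1t1 replicates, 20.8% of those of control replicate 1 and 73.6% of those of control replicate 2. Control replicate 2 therefore rested on few cells, unlike control replicate 1.

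Of the Cd4+ T cells, 5 of 2590 (0.193%, Wilson 95% interval 0.0825 to 0.451) held a Sostdc1 UMI in Runx1::Runx1t1 replicate 1. In Runx1::Runx1t1 replicate 2, 5 of 2439 did (0.205%, 0.0876 to 0.479). In control replicate 1 the count was 56 of 1162 (4.82%, 3.73 to 6.21), and in control replicate 2 it was 14 of 1079 (1.30%, 0.774 to 2.17). Both control pools lay above both Runx1::Runx1t1 pools and the intervals, which cover counting error only, did not overlap between the groups, while the 2 controls were also apart from each other. The mean share was lower in the Runx1::Runx1t1 group by 2.86 percentage points, and no test is given, since an exact permutation test of 2 pools against 2 cannot go below a two-sided p of 0.333. In Cd8+ T cells, which served as the background for free RNA, 0, 1, 1 and 0 cells held a Sostdc1 UMI among between 6005 and 7230 cells per pool. The Cd8+ cells were the deeper ones, with a median of 6793 to 7599 UMIs per cell against 4591 to 5512 in the Cd4+ cells, so the Cd4+ shares were above this background. All of the other kept cells together held 2, 1, 14 and 3 cells with Sostdc1. A further 1, 1, 12 and 0 cells with Sostdc1 were among the barcodes removed as doublets, and with doublets kept the difference of the Cd4+ shares was 2.79 points, again lower in the Runx1::Runx1t1 group.

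**Figure D1:**
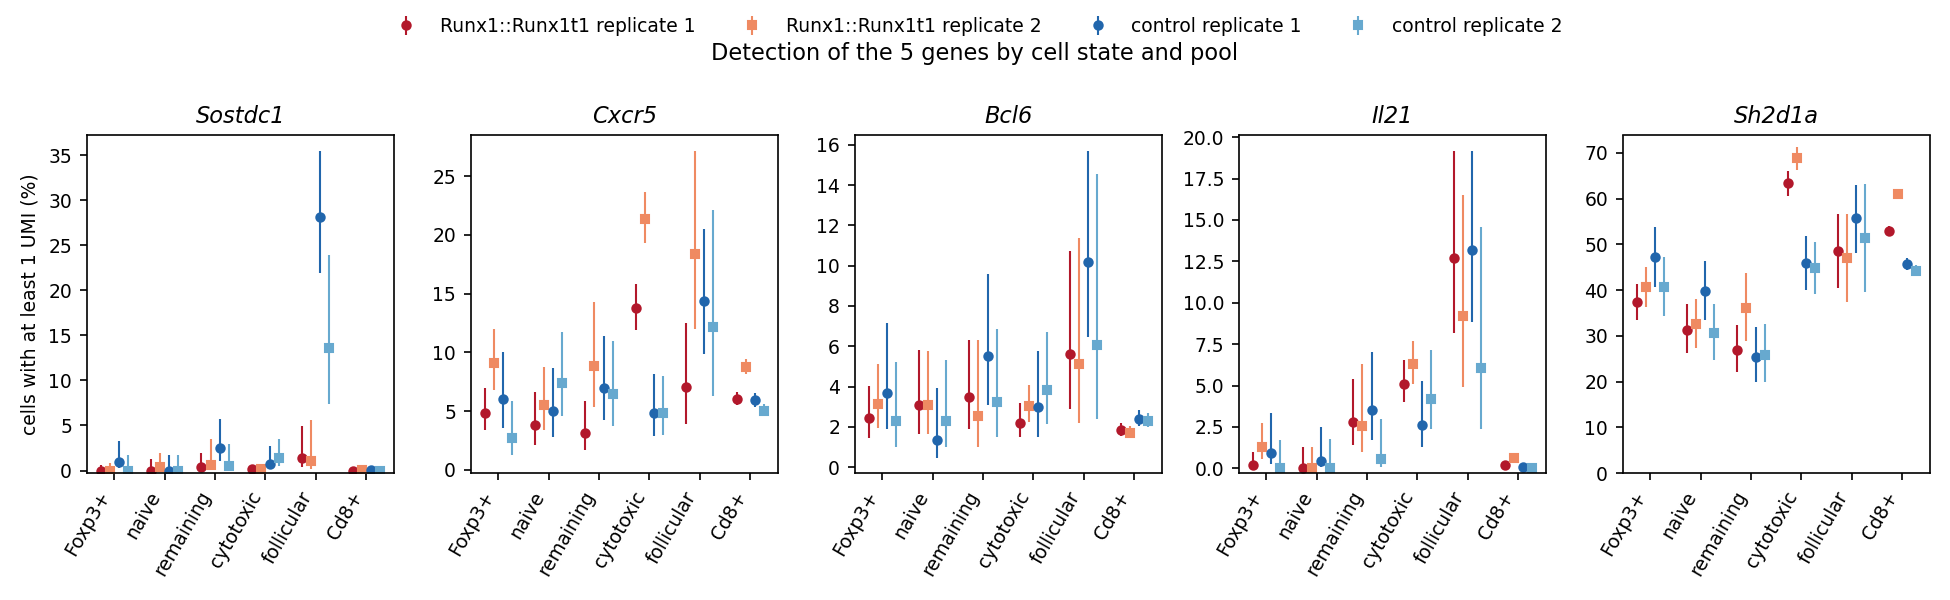
Share of cells with at least 1 UMI of each gene (y axis, percent) by cell state (x axis) in each of the 4 pools, with Wilson 95% intervals for counting error as bars. Sostdc1 reached 28.1% and 13.6% in the follicular gate of the controls, while Cxcr5 and Sh2d1a were most widely detected in the cytotoxic gate of Runx1::Runx1t1 replicate 2, at 21.4% and 68.8%.

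The sums of UMIs per pool gave the same order. Sostdc1 reached 0.610 and 1.20 CPM in the Cd4+ T cells of the Runx1::Runx1t1 replicates and 50.8 and 20.7 CPM in those of the controls. The log2 fold change, Runx1::Runx1t1 over control, was -5.24 (SE 0.50, edgeR quasi-likelihood fit, n = 2 pools per group). Of 11640 genes tested in these cells, 246 (2.11%) passed an adjusted p of 0.05. Sostdc1 was among them, as the gene was chosen on this difference. In summed counts, fewer cells that express a gene and less RNA in each such cell cannot be told apart, and the counts per cell above and below show both parts. Markers of other cells were also measured in the Cd4+ gate. The 6 B cell markers together had 5.51 to 11.9 CPM in the Runx1::Runx1t1 group and 9.57 to 17.7 CPM in the controls, and 1 of the 80 Cd4+ cells with Sostdc1 held any of them. The 5 myeloid markers had 11.2 to 65.4 and 56.9 to 89.7 CPM (15 of the 80 cells), and any of them was detected in 4.75% and 4.10% of the Cd4+ cells of the Runx1::Runx1t1 replicates and in 26.9% and 14.0% of those of the controls. In control replicate 1, 14 of the 56 cells with Sostdc1 held one. The 4 erythroid markers had 5.25 to 54.4 and 8.86 to 12.2 CPM (2 of the 80 cells), and the 3 NK and NKT markers had 22.2 to 44.4 and 101 to 104 CPM (5 of the 80 cells), in 7.45% and 3.98% against 14.5% and 16.3% of cells. The myeloid and the NK and NKT shares were thus higher in both controls, as Sostdc1 was. All of these markers were detected, while both Cd8 genes were at 0 through the gate. The part of these cells in the difference was not tested.

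Next, the Cd4+ T cells were divided by Foxp3, the transcription factor of regulatory T cells. Among Foxp3+ cells, 0 of 577 and 0 of 475 held Sostdc1 in the Runx1::Runx1t1 replicates, 2 of 216 (0.926%) in control replicate 1 and 0 of 219 in control replicate 2. Counts of 0 allow shares of up to 0.520%, 0.632% and 1.37% in those 3 pools, at 3 counts of the total. Among Foxp3- cells, 0.262% and 0.263% held Sostdc1 in the Runx1::Runx1t1 replicates and 6.31% and 1.85% in the controls. The cells with Sostdc1 were thus nearly all Foxp3-. Over all 4 pools, Sostdc1 was lower in Foxp3+ than in Foxp3- cells (log2 fold change -5.90, SE 0.42, adjusted p = 6.31e-06, edgeR quasi-likelihood, blocked by pool). The size of this value depends on the prior count, since 3 of the 4 Foxp3+ sums were 0. Within control replicate 1, the Foxp3- level was 41.2 times the Foxp3+ level, from 303 and 2 UMIs (exact 95% counting interval 11.3 to 342). This interval takes each UMI as independent, while the UMIs came from 54 and 2 cells, so it understates the uncertainty.

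Il21 and Cxcr5 were lower in Foxp3+ cells as well. Il21 was detected in 1, 6, 2 and 0 Foxp3+ cells of the 4 pools, in the order above, and its level was 0.324, 3.08, 3.46 and 0 CPM there against 13.7, 13.8, 14.6 and 7.84 CPM in Foxp3- cells (log2 fold change -3.00, SE 0.41, adjusted p = 4.56e-04). Cxcr5 had 10.1, 17.5, 13 and 6.47 CPM in Foxp3+ cells and 22.2, 39.6, 19.3 and 14.6 CPM in Foxp3- cells (-1.12, SE 0.15, adjusted p = 4.44e-04). Every pool showed these directions. Sh2d1a (-0.57, SE 0.21, adjusted p = 0.0775) and Bcl6 (-0.30, SE 0.22, adjusted p = 0.413) did not pass the test. Hence 3 of the 5 genes were lower and 0 higher, where 9.25% of the 10590 genes tested were called lower and 11.3% higher. Of the 22 other follicular helper genes, 21 were tested, of which 2 were higher and 8 lower, with a median log2 fold change of -0.19 against -0.01 over all genes. The largest of the falls was that of Cd40lg (-2.65), the ligand of the B cell receptor CD40, followed by Tcf7 (-1.78), a transcription factor of naive and follicular cells. Icos (1.06), a costimulatory receptor, and Izumo1r (0.87), the folate receptor 4 of regulatory and follicular cells, were the 2 that were higher. Il2ra, the high-affinity IL-2 receptor chain that marks regulatory T cells, was higher in Foxp3+ cells by 3.13, as part of 7 higher and 3 lower of the 13 genes that oppose the follicular fate. Of the Slam receptors and partners of Sh2d1a, 2 of 7 tested were higher and 4 lower, among them Slamf1 (0.69), Slamf7 (-2.12) and Slamf6 (-0.61). The receptor chains of IL-21, Il21r (0.40) and Il2rg (0.51), were both higher in Foxp3+ cells, and of the 12 BMP and Wnt pathway genes tested 4 were higher, such as Bmp7 (0.46), and 2 were lower, such as Lef1 (-0.61).

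Within the Foxp3- cells, Sostdc1 was concentrated in the follicular gate. In control replicate 1, 47 of 167 follicular-gate cells (28.1%) held it, with 265 UMIs, and in control replicate 2, 9 of 66 (13.6%) with 48 UMIs. In the Runx1::Runx1t1 replicates the counts were 2 of 142 (1.41%) with 3 UMIs and 1 of 98 (1.02%) with 8 UMIs. Outside the follicular gate, 3 and 4 Foxp3- cells of the Runx1::Runx1t1 replicates and 7 and 5 of the controls held it, at 0.170%, 0.222%, 1.02% and 0.725%. The level was 3.49 and 13 CPM in the follicular gate of the Runx1::Runx1t1 replicates and 308 and 143 CPM in that of the controls, against 0.596, 0.904, 11.2 and 19.8 CPM in the other Foxp3- cells. Every pool was higher in the follicular gate, by a log2 fold change of 3.71 (SE 0.31, adjusted p = 3.20e-06, pool as a block). This held when the follicular gate was taken before the cytotoxic gate, with 22.4% and 10.3% of the enlarged gate holding Sostdc1 in the controls and 0.783% and 0.557% in the Runx1::Runx1t1 replicates.

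The other 4 genes marked this gate less clearly. Il21 was higher there (log2 fold change 1.62, SE 0.23, adjusted p = 4.70e-04), with 33.7, 30.9, 38.4 and 26.8 CPM in the 4 pools against 12, 12.8, 8.56 and 6.02 CPM in the other Foxp3- cells. Bcl6 was higher as well (1.14, SE 0.29, adjusted p = 0.0281), with 11.6, 14.7, 20.9 and 17.9 CPM against 5.27, 6.42, 8.56 and 7.45 CPM, but its call was lost whichever pool was left out (1.13 to 1.16, adjusted p = 0.0616 to 0.117). Both genes were higher in the gate in all 4 pools. Cxcr5 (0.51, SE 0.29, adjusted p = 0.343) and Sh2d1a (0.19, SE 0.20, adjusted p = 0.681) were not called, so that 2 of the 5 genes, Sostdc1 and Il21, were called higher in this gate also without each pool. With the follicular gate taken first, Cxcr5 (0.91, adjusted p = 0.00469) and Sh2d1a (1.18, adjusted p = 9.37e-06) were called higher, and Bcl6 (0.71, adjusted p = 0.0815) was not. That gate held 72.2% and 81.8% of cells that also met the cytotoxic gate in the Runx1::Runx1t1 replicates, and 23.7% and 43.1% in the controls. In the main gates, 3 of the 5 genes were higher and 0 lower, where 3.86% of the 9895 genes tested were called higher and 3.5% lower. Of the 15 listed follicular helper genes that set no gate, 6 were higher and 0 lower, with a median of 0.43 against -0.01 over all genes. The largest was Tnfsf8 (2.08), the CD30 ligand, followed by the Slam receptor Slamf6 (0.95), and Cd84 (0.38), another Slam receptor, was called only with all 4 pools, and not when any 1 was left out (adjusted p = 0.0711 to 0.117). Of the 13 opposing genes, 2 were lower, among them Selplg (-0.79), an adhesion molecule of circulating T cells. Among the Slam receptors and partners, Slamf7, a receptor of cytotoxic cells, was lower (-2.88), and among the BMP and Wnt genes Lef1, which is also a naive gate gene, was lower (-0.95). The follicular gate is a range rather than a type, since 64.5% of its cells had exactly 2 of the gate genes and 29.4% of the cytotoxic-gate cells met the follicular gate as well.

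**Figure D2:**
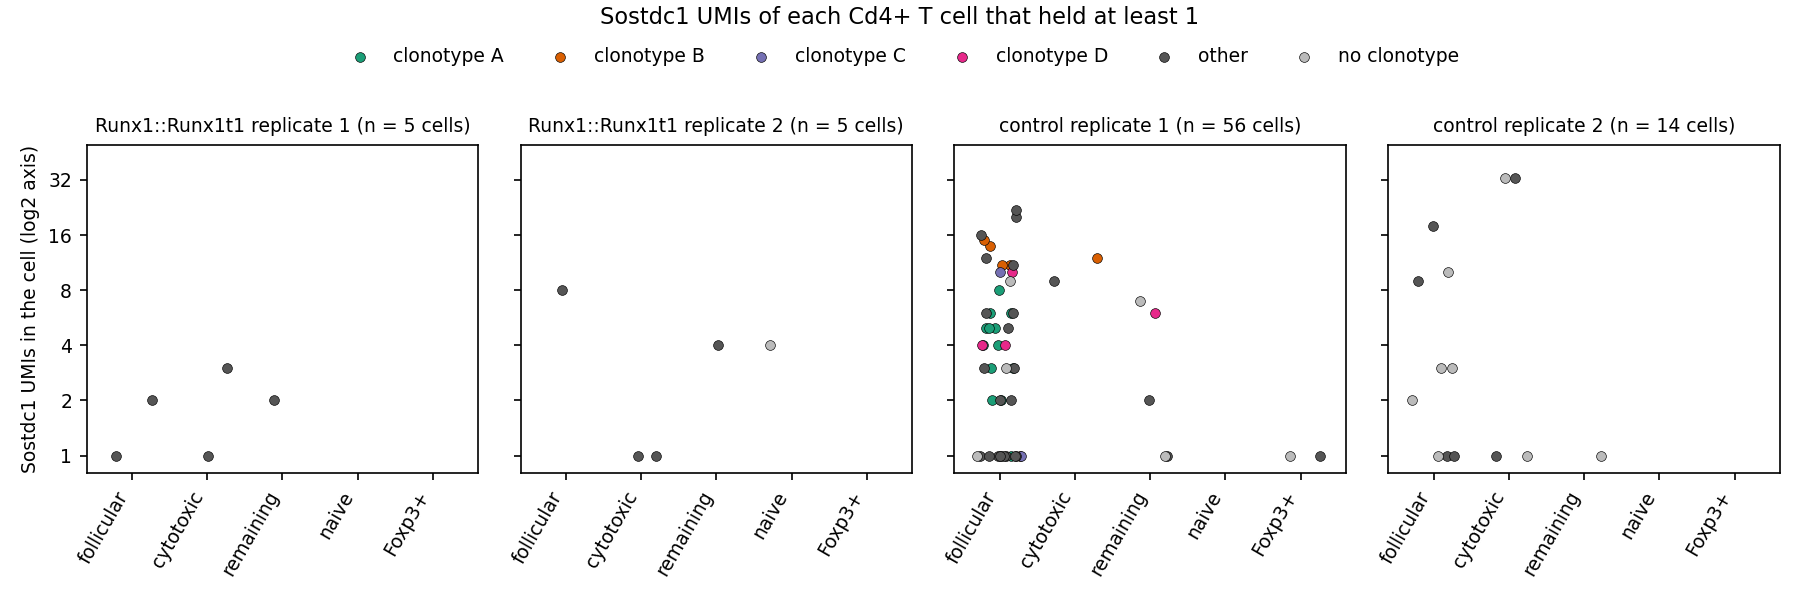
Each point is 1 Cd4+ T cell with at least 1 Sostdc1 UMI, plotted by its Sostdc1 UMIs (y axis, log2 scale) and its gate (x axis; points are spread sideways), with 1 panel per pool and colours for 4 clonotypes. The follicular gate held 47 of the 56 cells of control replicate 1 and 9 of the 14 cells of control replicate 2, whose 2 highest cells lay in the cytotoxic gate with 33 UMIs each.

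The fall of Sostdc1 was then measured in each cell state. In Foxp3- cells the level was 0.824 and 1.54 CPM in the Runx1::Runx1t1 replicates and 71.3 and 30.6 CPM in the controls (log2 fold change -5.35, SE 0.46). In the follicular gate the fold change was -4.88 (SE 0.42). Control pools lay above Runx1::Runx1t1 pools in both. In the cytotoxic gate, with 0.577 and 0.231 CPM against 14.2 and 41.3 CPM, it was -6.07 (SE 0.64), but this value rested on single cells. There, 2 cells with 33 UMIs each held 66 of the 68 UMIs of control replicate 2, and 2 cells with 12 and 9 UMIs held all 21 of control replicate 1. This gate held 2, 2, 2 and 4 cells with Sostdc1 in the 4 pools, and 0, 0, 0 and 1 with the follicular gate taken first. Nearly all of these cells thus also met the follicular gate, so this value does not describe a state apart from the follicular one. In these 3 fits, 2.94% of 11107, 0.928% of 7328 and 3.37% of 10333 genes were called, Sostdc1 among them, which follows the choice of the gene and is no support for it. In the Foxp3+ cells, the naive gate and the remaining gate it had too few counts for the filter, and it was not tested. The remaining gate held 1, 1, 5 and 1 cells with 2, 4, 17 and 1 UMIs. There the groups overlapped, as control replicate 2 did not lie above the Runx1::Runx1t1 pools. The naive gate held 1 cell with 4 UMIs, in Runx1::Runx1t1 replicate 2, and the invariant NKT gate held none.

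Whether the group effect differed between states was tested by interaction terms, whose p-values are not independent of the choice of the genes. For Sostdc1, the group effect in Foxp3+ cells minus that in Foxp3- cells was 0.34 (SE 0.69, adjusted p = 0.894), and the effect in the follicular gate minus that in the other Foxp3- cells was -0.49 (SE 0.94, adjusted p = 0.938). The first sets 2 UMIs in 1 control pool against all others, and the sign of both changed when a pool was left out. A difference between states was therefore not detectable with so few cells and pools. Sh2d1a and Cxcr5 did differ between states. The group effect of Sh2d1a was lower in Foxp3+ than in Foxp3- cells by 1.21 on the log2 scale (interaction -1.21, SE 0.15, adjusted p = 0.00260), and lower in the follicular gate than in the other Foxp3- cells (-1.28, SE 0.19, adjusted p = 4.81e-04). That of Cxcr5 was lower in the follicular gate (-1.61, SE 0.38, adjusted p = 0.0333). Both follicular differences ended when the follicular gate was taken before the cytotoxic gate, at 0.15 (adjusted p = 0.833) for Sh2d1a and -0.41 (adjusted p = 0.815) for Cxcr5. Without control replicate 1 they were not called either, at -1.17 (adjusted p = 0.368) for Sh2d1a and -1.21 (adjusted p = 0.744) for Cxcr5, and the Cxcr5 call was also lost without Runx1::Runx1t1 replicate 1 (adjusted p = 0.0693) or control replicate 2 (adjusted p = 0.0831), and without the clonotypes rich in Sostdc1 described below (adjusted p = 0.205). Within Foxp3- cells, Sh2d1a was also set out by clonotype size, without an interaction test. Its mean was 363 CPM in the Runx1::Runx1t1 group and 201 CPM in the controls in clonotypes of at least 2 cells. In cells whose clonotype was seen once it was 136 and 121 CPM, and the pools overlapped. The mean share of these cells with an Sh2d1a UMI was 41.7% and 36.9%, and for this share the pools did not overlap. The interactions called 1.38% of the 10590 genes for Foxp3 and 1.51% of the 9895 genes for the follicular gate. Of the 22 other follicular helper genes, 1 was called positive and 1 negative in the first, and 1 positive and 4 negative in the second.

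**Figure D3:**
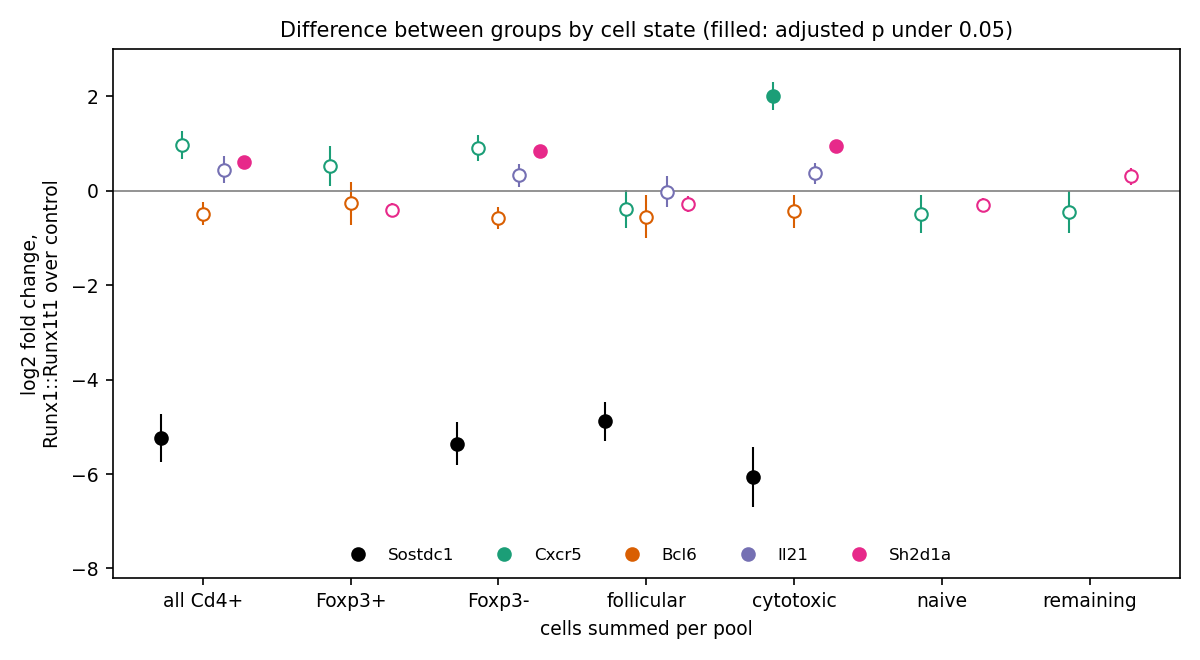
Log2 fold change between groups, Runx1::Runx1t1 over control (y axis), for each gene in each set of cells summed per pool (x axis), with standard errors as bars and filled points where the adjusted p was under 0.05. Sostdc1 lay between -6.07 and -4.88 wherever it could be tested. Its value in the cytotoxic gate rested on few cells, nearly all of which also met the follicular gate. Cxcr5 and Sh2d1a were higher in the cytotoxic gate by 2.01 and 0.96 and were not called in the follicular gate.

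Of the other 4 genes, Sh2d1a alone passed the threshold in Cd4+ cells, with a higher level in the Runx1::Runx1t1 group, and Cxcr5 and Il21 had positive and Bcl6 negative values that did not pass it. Sh2d1a was the most widely detected of the 5, in 49.0% and 55.7% of the Cd4+ cells of the Runx1::Runx1t1 replicates and in 43.7% and 39.2% of those of the controls, at 200 and 248 CPM against 160 and 141 CPM. Its log2 fold change was 0.62 (SE 0.11) in Cd4+ cells, 0.84 (SE 0.12) in Foxp3- cells and 0.96 (SE 0.12) in the cytotoxic gate, where it had 291 and 346 CPM against 160 and 174 CPM. These 3 were past the threshold. In Foxp3+ cells (-0.40), where 0.181% of 9398 genes were called, in the follicular gate (-0.28), in the naive gate (-0.29), where 0.5% of 8197 genes were called, and in the remaining gate (0.31), where 0.803% of 7351 genes were called, Sh2d1a was not. The difference in Cd4+ cells was no longer past the threshold without Runx1::Runx1t1 replicate 2 (0.46), control replicate 1 (0.68) or control replicate 2 (0.55), and counted as 1 cell per clonotype it was 0.11. Sh2d1a is also used by Cd8+ T cells, in which it was detected in 53.0%, 61.0%, 45.7% and 44.3% of cells.

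Cxcr5 was detected in 8.57% and 15.7% of the Cd4+ cells of the Runx1::Runx1t1 replicates and in 6.54% and 5.19% of those of the controls, at 18.6 and 34.2 CPM against 16.3 and 11.3 CPM (log2 fold change 0.97, SE 0.30, not past the threshold). Without Runx1::Runx1t1 replicate 1 it was 1.33 and past it. In the cytotoxic gate, 13.8% and 21.4% of cells held Cxcr5 against 4.85% and 4.86% in the controls, at 29.4 and 46.2 CPM against 10.1 and 9.10 CPM (2.01, SE 0.30, past the threshold). In the follicular gate the pools overlapped, at 7.04%, 18.4%, 14.4% and 12.1% (-0.39, SE 0.40), and the naive (-0.49) and remaining (-0.44) gates and Foxp3+ cells (0.52) were not past the threshold either. Cd8+ T cells held Cxcr5 in 5.04% to 8.77% of cells, so that the shares of the naive gate, at 3.79% to 7.41%, were not above that of Cd8+ T cells.

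Bcl6 was detected in 2.66% and 3.12% of the Cd4+ cells of the Runx1::Runx1t1 replicates and in 4.65% and 2.87% of those of the controls, at 5.49 and 6.71 CPM against 10.8 and 6.73 CPM. The shares overlapped, and the CPM did not, with 6.71 next to 6.73. Its log2 fold change was -0.48 in Cd4+ cells, -0.58 in Foxp3- cells, -0.55 in the follicular gate, -0.43 in the cytotoxic gate and -0.26 in Foxp3+ cells, and none of these passed the threshold. Other sets, not tested for Bcl6, went both ways. Its mean was higher in the Runx1::Runx1t1 group in the naive gate (6.60 against 4.13 CPM) and in Foxp3- cells whose clonotype was seen once (8.40 against 5.82). It was lower in the remaining gate (6.13 against 14.1) and in expanded Foxp3- clonotypes (4.66 against 15.4). The CPM of the pools did not overlap in any of these. Il21 was detected in 3.40% and 4.35% against 3.36% and 1.58% of Cd4+ cells, at 10.2 and 11.4 CPM against 11 and 5.31 CPM, and Runx1::Runx1t1 replicate 1 lay below control replicate 1. The log2 fold change of Il21 was 0.45 in Cd4+ cells, 0.33 in Foxp3- cells, 0.37 in the cytotoxic gate and -0.01 in the follicular gate, none past the threshold. In the follicular gate Il21 was detected in 12.7%, 9.18%, 13.2% and 6.06% of cells, against at most 0.595% in the Cd8+ cells of any pool.

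The listed pathway genes showed how the surrounding programme stood in the same cells. Among Cd4+ T cells, 1 of the 22 other follicular helper genes was higher in the Runx1::Runx1t1 group and 3 were lower, with a median log2 fold change of -0.23 against -0.01 over all genes. Of all 11640 genes tested there, 246 (2.11%) were called, 161 higher and 85 lower. Batf, a transcription factor of activated and follicular T cells, was higher (0.63), and Il6ra (-0.84), the IL-6 receptor that feeds into the follicular fate, Slamf6 (-0.55) and Tcf7 (-0.58) were lower. These 4 calls each depended on the pools. Without Runx1::Runx1t1 replicate 2 none of them held (adjusted p = 0.181, 0.0655, 0.116 and 0.149), those of Batf, Slamf6 and Tcf7 were also lost without Runx1::Runx1t1 replicate 1, and that of Batf without control replicate 2. Of the 13 opposing genes, 1 was higher and 1 lower, and Prdm1 was the higher one (1.49, SE 0.19, adjusted p = 0.0184), which encodes Blimp-1, the repressor that opposes Bcl6. Of the 14 BMP and Wnt genes tested, Id3, a target of BMP signals, was lower (-0.57) and none was higher, a call that was lost without either Runx1::Runx1t1 replicate (adjusted p = 0.184 and 0.0919) or control replicate 1 (adjusted p = 0.0856), of 8 Slam genes tested Slamf6 alone passed, and of the ligands and receptors of the 5 genes, 2 could be tested and neither was called.

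In the follicular gate, Tox2, a transcription factor of follicular cells that is also a gate gene, was lower in the Runx1::Runx1t1 group (-1.61, SE 0.23, adjusted p = 0.00141), and without control replicate 1 it was not called (-1.46, adjusted p = 0.0776). Pdcd1, another gate gene, which encodes the inhibitory receptor PD-1, was at -0.82 (adjusted p = 0.0499), lost its call without Runx1::Runx1t1 replicate 2 or either control, and turned to 0.38 with the follicular gate taken first. Il2ra (2.09, adjusted p = 0.0307) and Id2 (0.93, adjusted p = 0.0359), an inhibitor of E proteins, were called higher. The call of Il2ra was lost without Runx1::Runx1t1 replicate 1 (1.80), control replicate 1 (3.83) or control replicate 2 (1.73), and that of Id2 without control replicate 2 (0.62), while without each other pool Id2 reached up to 1.53. In the cytotoxic gate, where Cxcr5 and Sh2d1a were higher, 4 of 21 tested follicular helper genes were higher and 3 lower, with Pdcd1 (1.27), Batf (1.15), Tox (0.87) and Maf (0.69) as the higher ones, and Prdm1 was higher too (1.69). The median over the 21 was -0.02, against -0.01 over all genes, and 3.37% of the 10333 genes tested were called. With each clonotype counted once, 13 of 9177 genes were called in this gate, so most calls there depended on counting every cell of a clonotype.

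Receptor sequences allowed the cells with Sostdc1 to be traced to clones. A clonotype is a set of cells with the same receptor chains within a pool, and of the 102 cells with Sostdc1, 83 had one. They fell into 52 clonotypes, 5, 6, 34 and 7 in the 4 pools, and 27 of these had at least 2 cells and held 58 of the 83 cells (69.9%). Among expanded Cd4+ clonotypes, those of at least 2 cells, 3 of 241 and 1 of 193 held a cell with Sostdc1 in the Runx1::Runx1t1 replicates (1.24% and 0.518%), and 17 of 99 and 4 of 64 in the controls (17.2% and 6.25%). The control pools lay above the Runx1::Runx1t1 pools here too. With each clonotype counted once, as holding Sostdc1 if any of its Cd4+ cells did, the shares were 0.273%, 0.342%, 3.34% and 0.641%. The Wilson 95% interval of control replicate 2 (0.274 to 1.49) then overlapped those of both Runx1::Runx1t1 replicates (0.106 to 0.701 and 0.133 to 0.877). That of control replicate 1 (2.29 to 4.85) did not. For the other genes the groups lay closer at the level of expanded clonotypes. Cxcr5 was seen in 19.5%, 33.7%, 18.2% and 9.38% of them, Bcl6 in 8.71%, 7.77%, 18.2% and 7.81%, Il21 in 12.9%, 14.0%, 14.1% and 10.9%, and Sh2d1a in 68.5%, 71.5%, 68.7% and 67.2%. The groups overlapped for Bcl6, Il21 and Sh2d1a, and both Runx1::Runx1t1 pools lay above both controls for Cxcr5. A clonotype counted here if any of its cells held the gene, so these shares also depend on clonotype size, which was not matched between the groups.

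Compared with Foxp3- cells whose clonotype was seen once, those of expanded clonotypes had higher Sostdc1 (log2 fold change 3.50, SE 0.83, adjusted p = 0.0329, pool as a block), with 1.60, 0.214, 221 and 102 CPM against 0.410, 3.12, 16.2 and 0.406 CPM. Runx1::Runx1t1 replicate 2 went the other way, so 3 of the 4 pools showed the direction. The call was lost without Runx1::Runx1t1 replicate 1 (3.54, adjusted p = 0.0756), without control replicate 1 (2.66, adjusted p = 0.341), without control replicate 2 (2.73, adjusted p = 0.138) and without the 4 clonotypes described next (2.83, adjusted p = 0.0821). Il21 (2.31, SE 0.36, adjusted p = 0.00501), Cxcr5 (1.07, SE 0.17, adjusted p = 0.00524) and Sh2d1a (1.03, SE 0.14, adjusted p = 0.00295) were higher in the expanded cells in all 4 pools, and Bcl6 was not called (-0.05, SE 0.46, adjusted p = 0.983). Thus 4 of the 5 genes were higher and 0 lower, where 4.88% of the 10434 genes tested were called higher and 5.81% lower. Of the 22 other follicular helper genes 5 were higher, among them Pdcd1 (2.11), Maf (1.35), Tox (1.01) and Batf (1.05), and 3 were lower. The opposing genes went 2 higher, with Prdm1 at 1.82, and 9 lower, with Klf2 at -1.54 and Gpr183 at -0.96, a regulator and a receptor of T cell circulation.

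In control replicate 1, 4 clonotypes held at least 3 cells with Sostdc1 each, and together they held 28 of its 71 cells (39.4%) and 173 of its 361 UMIs (47.9%). None of the 4 was seen in another pool. Their CDR3 sequences, which code the part of the receptor that meets the antigen, are shown because these clones carry so much of the Sostdc1 signal. Capitals mark the bases that continue neither the germline V nor the germline J segment in GENCODE M21.
Clonotype A, alpha chain, Trav10 and Traj31: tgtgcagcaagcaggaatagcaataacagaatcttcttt
Clonotype A, beta chain, Trbv13-3 and Trbj2-5: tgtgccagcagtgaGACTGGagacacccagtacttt
Clonotype B, alpha chain, Trav17 and Traj56: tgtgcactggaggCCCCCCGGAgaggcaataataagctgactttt
Clonotype B, beta chain, Trbv19 and Trbj2-5: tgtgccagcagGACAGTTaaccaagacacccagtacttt
Clonotype C, alpha chain, Trav12-2 and Traj56: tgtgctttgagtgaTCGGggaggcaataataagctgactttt
Clonotype C, beta chain, Trbv3 and Trbj2-4: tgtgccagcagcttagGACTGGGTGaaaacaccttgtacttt
Clonotype D, alpha chain, Trav17 and Traj53: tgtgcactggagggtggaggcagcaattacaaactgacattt
Clonotype D, beta chain, Trbv5 and Trbj2-3: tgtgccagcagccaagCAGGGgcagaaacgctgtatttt

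All segments lie on the plus strand of GRCm38. Traj56, used by clonotypes B and C, lies at chr14:54159263-54159325, and Trav17, used by B and D, at chr14:53806639-53807115. Trbj2-5, used by A and B, lies at chr6:41543453-41543501. The clonotypes therefore shared segments in pairs, while their junctions differed.

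Clonotype A was the largest, with 14 of 35 cells holding Sostdc1 and 55 UMIs, the highest cell with 8. Of its 35 cells 30 were in the Cd4+ gate, 25 in the follicular gate, 3 in the cytotoxic gate and 2 in the remaining gate, and 29 held Pdcd1, 19 Sh2d1a, 5 Bcl6, 4 Cxcr5, 4 Il21 and 0 Foxp3. Clonotype B had the most UMIs, 64 in 6 of 11 cells, with up to 15 in a cell. Its cells were all in the Cd4+ gate, 8 of them follicular and 3 cytotoxic, and 4 held Sh2d1a, 3 Cxcr5, 3 Il21 and 1 Bcl6. Clonotype C had 30 UMIs in 4 of 15 cells, 17 of them in 1 cell. Of its cells 5 held a Cd8 UMI and were outside the Cd4+ gate, and 7 held Sh2d1a, 6 Il21, 2 Cxcr5 and 0 Bcl6. Clonotype D had 24 UMIs in 4 of 10 cells, up to 10 in a cell, with 7 cells in the follicular gate, and 5 of its cells held Sh2d1a, 2 Cxcr5, 2 Il21 and 1 Foxp3. In each of the 4, cells with and without a Sostdc1 UMI stood side by side. Without these clonotypes the share of Cd4+ cells with Sostdc1 in control replicate 1 was 2.81%, and the mean share was still lower in the Runx1::Runx1t1 group, by 1.85 points.

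Finally, the cells with Sostdc1 were described within the follicular gate of the controls, where 56 cells held it and 177 did not. Il21 was detected in 30.4% of the first and 5.08% of the second, Bcl6 in 23.2% and 4.52%, Cxcr5 in 26.8% and 9.60%, and Sh2d1a in 67.9% and 50.3%. Tnfsf8 was detected in 96.4% and 59.9%, Pdcd1 in 78.6% and 51.4% and Tox2 in 58.9% and 34.5%. Ccl5, a cytotoxic gate gene, went the other way, in 16.1% and 34.5%. Cells with Sostdc1 were deeper, with a median of 5556 UMIs against 4325. After every cell was thinned to 2000 UMIs, which left 54 and 177 cells, Il21 was still detected in 20.4% and 2.26%, Tnfsf8 in 72.2% and 42.9%, Pdcd1 in 38.9% and 23.2% and Ccl5 in 3.70% and 18.1%, while Cxcr5 (9.26% and 5.08%), Bcl6 (3.70% and 2.82%) and Sh2d1a (35.2% and 29.9%) lay closer together. These are shares over cells of 2 pools, some of 1 clone, and they were not tested. Of the 56 cells with Sostdc1, 47 came from control replicate 1, and 24 of those lay outside clonotypes A to D. The 237 follicular-gate cells without Sostdc1 in the Runx1::Runx1t1 group held Izumo1r in 94.1%, Pdcd1 in 45.6%, Tox2 in 16.5% and Ccl5 in 59.1% of cells. Ccl5, which is no follicular gate gene, was thus detected in a larger share of them than of either set of control cells before thinning, and Tox2 in a smaller share. These shares over the cells of 2 pools were not thinned and not tested.

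**Figure D4:**
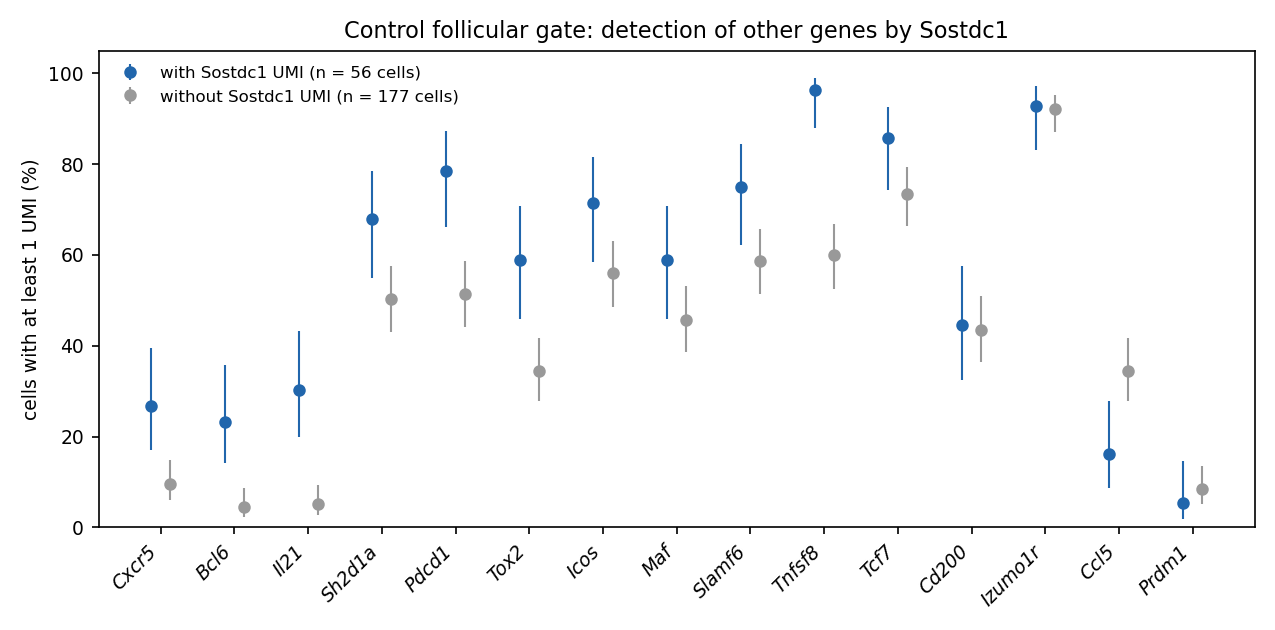
Share of follicular-gate cells of the 2 control pools with at least 1 UMI of each gene (y axis, percent; genes on the x axis), for the 56 cells with a Sostdc1 UMI and the 177 cells without, with Wilson 95% intervals for counting error as bars and no thinning of depth. Il21, Bcl6, Cxcr5 and Tnfsf8 were detected more often beside Sostdc1, and Ccl5 less often. Of the 56 cells, 47 came from control replicate 1.

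The genes with the pattern most like that of each of the 5 were ranked by Pearson's r over 20 sums, which were 5 states in 4 pools, among 11105 genes. Closest to Sostdc1 were Trim8 (r = 0.83), Ankrd46 (0.83), Commd9 (0.83) and Clec2d (0.82). Bcl6 stood at 0.80 with 11 genes above it, Il21 at 0.69 with 88 above it, Cxcr5 at 0.42 with 1441 above it and Sh2d1a at 0.38 with 1833 above it. Closest to Cxcr5 was Rapgef1 (0.83), to Bcl6 Prelid2 (0.85), to Il21 Gdi2 (0.94) and to Sh2d1a Pdcd1 (0.89). The sums share libraries and depth, so these values describe likeness and carry no test.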

How the data were processed

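Bone marrow T cells of 4 pools were profiled by 5′ single-cell RNA-seq with matched receptor libraries (8 libraries). The authors deposited UMI counts per gene and barcode, and receptor chains per barcode with their read and UMI counts, made with Cell Ranger 6.1.2 and GRCm38. The annotation release is not given in the sources used here. Cells with under 200 genes or over 15% mitochondrial UMIs were left out, as were doublets by Scrublet (scanpy 1.11.5), taken as the top 5% of scores where the automatic threshold marked under 0.5%. This removed between 4.22% and 5.40% of cells. UMIs were summed per pool and state (at least 20 cells) and tested with edgeR 4.0.16 in R 4.3.3 (TMM, filterByExpr, quasi-likelihood, Benjamini-Hochberg over all genes tested, threshold 0.05), with the pool as a block between states. On simulated counts, 189 of 200 changed genes were recovered with 10 false calls in a group comparison of 11465 genes, and 127 of 200 with 2 false calls for an interaction over 9980 genes. These counts were drawn with a fixed spread between pools, not that of these pools. Only genes above a minimum mean count were changed, so recovery was not measured for genes with low counts. DESeq2 1.42.0 was an alternative. The pool is the replicate, and p-values measure the spread between pools. Genes named from the 5 lists were up to 4 per list and comparison with the smallest adjusted p among those called. The 5 genes, gates and lists were chosen with earlier results of these data known. Other genes of the Slam and pathway lists are given as counts, and sequences other than receptor junctions were not used here. Values of 1 listed gene are not reported here.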

Additional observations from a re-analysis of the deposited data

Results flagged for a closer look

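The following results differed between cell states by an interaction test (edgeR quasi-likelihood, 2 pools per group), and they are given as values. The group difference was known when the genes were chosen, so the p-values are not independent of the choice. The group effect of Sh2d1a, Runx1::Runx1t1 over control, in Foxp3+ minus that in Foxp3- Cd4+ T cells was -1.21 on the log2 scale (SE 0.15, adjusted p = 0.00260). The group effect of Sh2d1a in the follicular gate minus that in the other Foxp3- cells was -1.28 (SE 0.19, adjusted p = 4.81e-04). For Cxcr5, the group effect in the follicular gate minus that in the other Foxp3- cells was -1.61 (SE 0.38, adjusted p = 0.0333). The follicular values for both genes were no longer called with the follicular gate taken before the cytotoxic gate, nor without control replicate 1 (adjusted p = 0.368 for Sh2d1a and 0.744 for Cxcr5), and that of Cxcr5 was also lost without Runx1::Runx1t1 replicate 1 (adjusted p = 0.0693) or control replicate 2 (adjusted p = 0.0831). The share of cytotoxic-gate cells differed between the groups, and its part in these values was not tested. In Foxp3- cells of expanded clonotypes, Sh2d1a had a mean of 363 CPM in the Runx1::Runx1t1 group and 201 CPM in the controls. In Foxp3- cells whose clonotype was seen once, the means were 136 and 121 CPM and the pools overlapped, while the shares of cells with a UMI (41.7% and 36.9%) did not. Whether the group effect differed by clonotype size was not tested.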

How the results depend on the processing

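The alternatives were other normalization (DESeq2 size factors), DESeq2, no filter on low counts, the replicate block, doublets kept, at least 2 Cd4 or Foxp3 UMIs, larger expanded clonotypes, each clonotype counted once, and leaving out each pool. Those chosen after seeing the data were the follicular gate before the cytotoxic gate, cells with or without a Cd4 UMI, and leaving out the clonotypes with at least 3 Sostdc1 cells. Of the alternative values for the main results, 153 kept their direction and their side of the threshold, and the exceptions follow. With each clonotype counted once, Sh2d1a in Cd4+ cells was 0.11 and Bcl6 0.028, Sostdc1 in Foxp3- cells was -3.67 and no longer past the threshold, and 100 genes were called in Cd4+ cells instead of 246. The same setting called 28 genes in Foxp3- cells instead of 326, and 13 in the cytotoxic gate instead of 348. With or without a Cd4 UMI, 1761 genes were called and Il21 was 1.85. Leaving out 1 pool at a time, 84 to 301 genes were called (84 without Runx1::Runx1t1 replicate 2 and 120 without Runx1::Runx1t1 replicate 1), Sh2d1a in Cd4+ cells was 0.46 to 0.75 and lost its call without Runx1::Runx1t1 replicate 2 or either control, Cxcr5 was 0.48 to 1.33, and Sostdc1 in expanded cells was 2.66 to 4.2. Without the clonotypes rich in Sostdc1 the last was 2.83. Sostdc1 between groups in Cd4+ cells, Foxp3- cells, the follicular gate and the cytotoxic gate stayed between -6.73 and -4.12 without each pool. The difference of its group effect between Foxp3+ and Foxp3- cells was -0.42 to 4.68 without each pool and -0.030 with each clonotype counted once, and that for the follicular gate was -1.38 to 0.55 without each pool and 0.038 with at least 2 Cd4 UMIs. Neither was called. The causes were not tested.

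The replicate numbers shared by the groups did not pair the pools by any label, and same-numbered pools deviated together with r = 0.25 over 10226 genes (2 pairs). The replicate block raised the genes called in Cd4+ cells to 409 and turned Il21 in the follicular gate to 0.018.

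The sign also changed for single genes as follows. With or without a Cd4 UMI, Il6ra was 0.24 and Slamf6 0.032 in Cd4+ cells. With each clonotype counted once, Bcl6 was 0.13 in Foxp3+ cells and 0.088 in the cytotoxic gate, S1pr1 was 0.13 in the cytotoxic gate, Cxcr5 was 0.010 in the follicular gate, and the Foxp3 difference of the Cxcr5 effect was 0.12. With the follicular gate first, Sh2d1a (0.79), Cxcr5 (0.56) and Pdcd1 (0.38) turned positive in the follicular gate, Bcl6 (0.015) in the cytotoxic gate, and the follicular difference of Sh2d1a was 0.15. Il21 in the follicular gate was 0.0060 with no filter, 0.023 with DESeq2, 0.046 with at least 2 Cd4 UMIs and 0.40 without the clonotypes rich in Sostdc1. Leaving out 1 pool at a time, the values of results that were not called and changed sign ranged as follows. In the follicular gate, Il21 was -0.14 to 0.32 and Cxcr5 -1.16 to 0.22, and Sh2d1a against the other Foxp3- cells was -0.090 to 0.49. Cxcr5 was -0.93 to 0.093 in the remaining gate, Bcl6 was -0.66 to 0.27 in Foxp3+ cells and -0.67 to 0.51 in expanded cells, and Il21 was -9.1e-04 to 0.82 in Foxp3- cells. The Foxp3 difference of the group effect was -0.62 to 0.020 for Cxcr5 and -2.53 to 5.40 for Il21.

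Requiring 3 follicular gate genes left too few cells in a pool and was not run. The number of cells limits Sostdc1 in Foxp3- cells outside the follicular gate, where no pool had more than 7 cells with it.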
